A study of Setaria viridis with 32 samples.

Results

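The change in transcript levels of Setaria viridis seed heads between 8 and 16 days after anthesis (DAA) was compared between the ecotypes ME034V and A.10. S. viridis is a small C4 grass whose seed heads fill with starch during these stages. For each locus, the value is the change in ME034V (16 DAA over 8 DAA) minus the change in A.10 (16 DAA over 8 DAA), as a log2 fold change. A positive value means that the locus rose more, or fell less, in ME034V. The comparison used 16 of the 32 libraries of the series, 4 each of ME034V 16 DAA, ME034V 8 DAA, A.10 16 DAA and A.10 8 DAA. Of the 38334 loci counted, 23601 reached a count scaled by library total (CPM) above 1 in at least 3 of the 16 libraries and were tested. The CPM levels given below are after TMM scaling. Both ecotypes were untreated plants from 1 growth chamber, and every replicate was a pool of 4 plants from which whole seed heads were ground together. Each value is therefore an average over husks, rachis, bristles, flowers and seeds, and fewer cells of a type and less RNA per cell cannot be told apart. Library totals ran from 6244672 to 19063647 counts, with a median of 8739814.

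Seeds of grasses import sucrose from the phloem. Cell wall invertases, SWEET sugar pores and hexose or sucrose transporters carry sugar across the maternal and filial tissues, sucrose synthase and pyrophosphorylases feed it to starch synthases and branching enzymes, and amylases, with alpha-glucosidases, later break starch down. Aquaporins carry water, and TIP3 aquaporins are known as markers of seed storage vacuoles. The count files pair locus identifiers with no gene name, so names are given only for the sugar and water transport and metabolism families that the study listed.

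Most of the late change ran in the same direction in both ecotypes. ME034V rose at 1055 loci and fell at 488 between 8 and 16 DAA, and A.10 rose at 1933 and fell at 1670 (edgeR quasi-likelihood test, adjusted p under 0.05). These are 4.47% and 2.07% of the loci tested in ME034V and 8.19% and 7.08% in A.10, or 6.54% and 15.3% with both directions together. With library totals alone as the scaling, the numbers that rose and fell were 889 and 661 in ME034V and 1612 and 2148 in A.10. Both ecotypes rose at 640 loci and both fell at 299. No locus fell in ME034V and rose in A.10, and 3 rose in ME034V and fell in A.10. Across the 23601 loci the 2 changes, which share no library, had a Pearson correlation of 0.67 and a Spearman correlation of 0.58. This correlation is across loci, which are not independent of each other.

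The loci called in either ecotype moved less in the other. The 1055 loci that rose in ME034V had a median log2 fold change of 1.25 in ME034V and 0.89 in A.10, and 94.9% of them were above 0 in A.10. The 488 that fell in ME034V had medians of -0.68 in ME034V and -0.55 in A.10, with 96.1% below 0 in A.10. Chosen by A.10 instead, the 1933 loci that rose had medians of 0.41 in ME034V and 0.81 in A.10, and the 1670 that fell had medians of -0.35 in ME034V and -0.66 in A.10. In each set the ecotype that chose the loci had the larger median, and choosing loci by a value favours that value. The 640 loci called as rising in both had medians of 1.45 in ME034V and 1.41 in A.10.

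**Figure D1:**
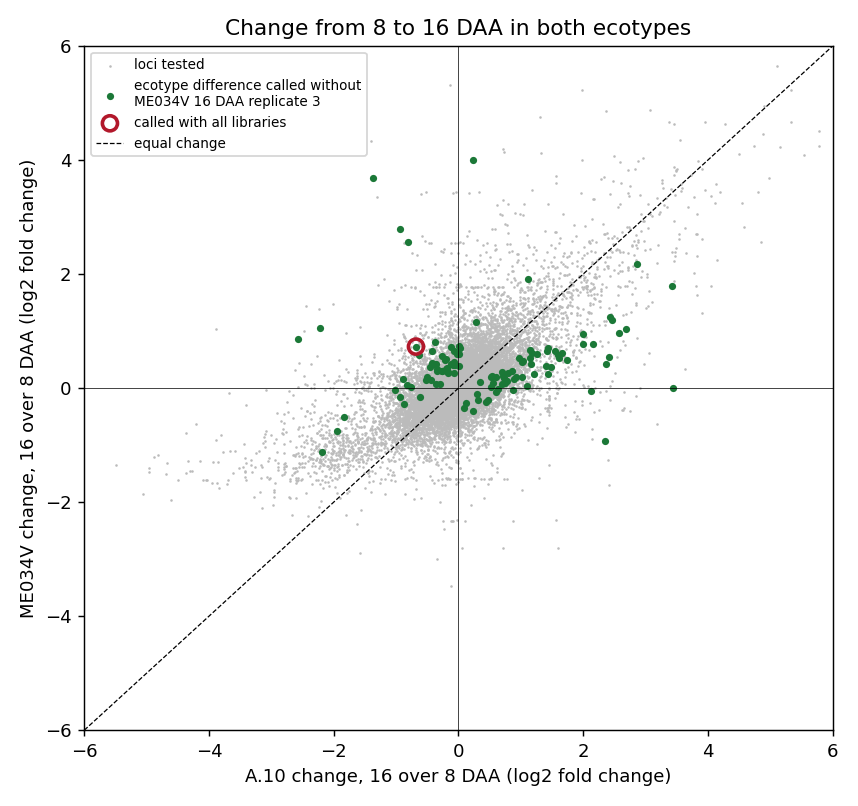
Log2 fold change from 8 to 16 DAA of the loci tested, ME034V on the vertical and A.10 on the horizontal axis. Points on the dashed line changed equally, 9 loci lie outside the axes, the ring marks the 1 locus called with all 16 libraries, and green points mark the loci called without ME034V 16 DAA replicate 3. Most green points lie away from the line at modest changes, many with a rise in A.10 and little change in ME034V.

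The test of the difference itself called 1 locus, which is 0.00424% of those tested. An unadjusted p under 0.05 was found at 1964 loci, or 8.32%. The median difference over all loci was 0.03. The standard error of the difference had a median of 0.26 and ran from 0.12 at the 10th percentile of loci to 0.69 at the 90th. For 14876 of the 23601 loci, or 63.0%, the 95% interval of the difference lay wholly between -1 and 1, and for 6305, or 26.7%, it lay between -0.5 and 0.5. At the other loci the interval reached beyond -1 or 1. DESeq2 on the same libraries called 77 loci, 32 with a positive and 45 with a negative difference, the 1 locus among them.

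The locus called was Sevir.1G377200, on chromosome 1 from 41184503 to 41186876 on the plus strand (v2.1 annotation), for which the files give no name. It rose in ME034V and fell in A.10. ME034V had 33.0, 33.6, 45.4 and 40.4 CPM at 16 DAA and 20.3, 25.2, 25.5 and 21.2 CPM at 8 DAA. A.10 had 60.3, 62.6, 79.9 and 75.3 CPM at 16 DAA and 122, 116, 109 and 99.2 CPM at 8 DAA. In neither ecotype did the stages overlap, and all 8 A.10 libraries were above all 8 ME034V libraries. The group means were 38.1 ± 5.9 at 16 DAA and 23.0 ± 2.7 CPM at 8 DAA in ME034V, and 69.5 ± 9.5 and 112 ± 9.7 CPM in A.10 (SD, n = 4 each). The change was 0.73 in ME034V and -0.68 in A.10, a difference of 1.41 (SE 0.17, 95% interval 1.04 to 1.78, adjusted p = 0.0114 with edgeR). It remained called without ME034V 16 DAA replicate 3 (1.32, adjusted p = 0.00163 with edgeR). Without A.10 16 DAA replicate 2 the adjusted p was 0.051, with a difference of 1.36, and a test for a difference beyond 1 log2 unit did not call the locus. The last 24 bases of the locus are shared with Sevir.1G377300 on the same strand, which had 18 to 73 counts per library against 193 to 1411 for Sevir.1G377200.

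The other loci that rose in ME034V and fell in A.10 were Sevir.5G400900 and Sevir.6G241200, named after their values were seen. Sevir.5G400900 had a difference of 0.82 (adjusted p = 0.0639 with edgeR, and 0.0143 without ME034V 16 DAA replicate 3). Its levels ran from 43.0 to 56.5 CPM in ME034V 16 DAA and from 34.8 to 40.6 in ME034V 8 DAA, and from 30.9 to 39.3 CPM in A.10 16 DAA and from 42.0 to 46.3 in A.10 8 DAA, with no overlap of the stages in either ecotype. Its end overlaps Sevir.5G401000 on the opposite strand by 181 bases, a locus with similar counts, and the counting did not use strand. Sevir.6G241200 had a difference of 1.55 (adjusted p = 0.166, and 0.0565 without that library) at levels of 3.25 to 12 CPM.

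Among libraries left out singly, 1 moved the number of loci called by edgeR far more than the others. The number also depended on the tool and on other settings, given in the last section. Without ME034V 16 DAA replicate 3, with normalization, filter and fit repeated on the other 15 libraries, 116 of 23478 loci were called, or 0.494%, with 54 positive and 62 negative differences. An unadjusted p under 0.05 was then found at 12.5% of loci. DESeq2 called 332 loci on these 15 libraries, and 109 of the 116 were among them. Leaving out any other single library gave 0 to 3 calls. From the 15 libraries, leaving out 1 more gave 34 calls without ME034V 16 DAA replicate 1, 36 without ME034V 16 DAA replicate 4 and up to 128 without A.10 8 DAA replicate 3.

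**Figure D2:**
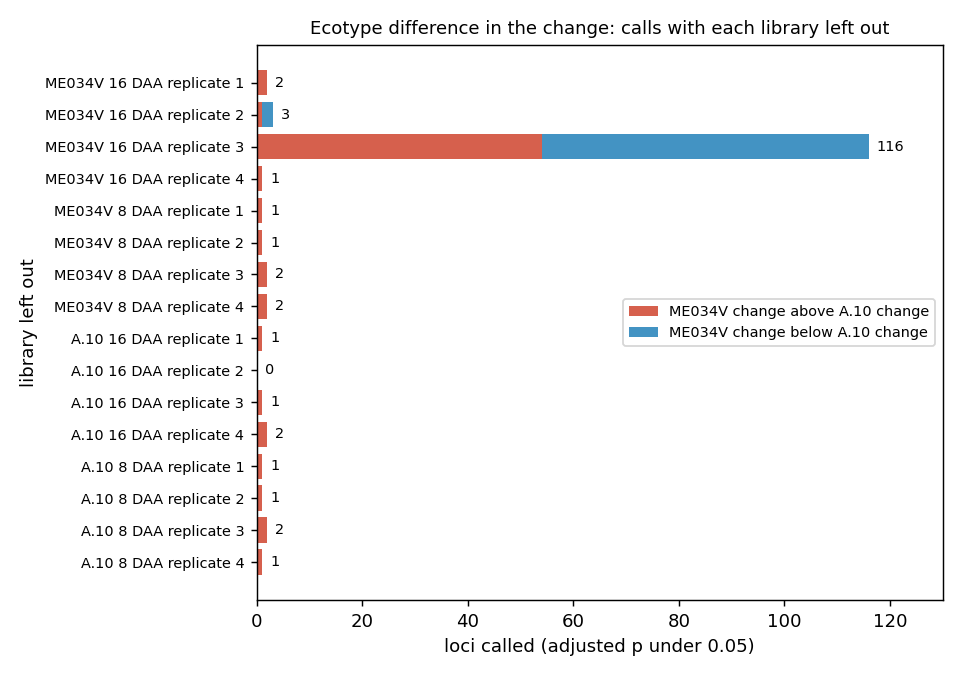
Number of loci with a called ecotype difference (horizontal axis, edgeR, adjusted p under 0.05) when the library named on the vertical axis was left out, split by the sign of the difference. The bar without ME034V 16 DAA replicate 3 reaches 116, and the other bars reach 0 to 3.

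The 116 loci were mostly ones that moved in 1 ecotype. Of the 62 negative differences, 52 rose in A.10 with no call in ME034V, 7 rose in both and 3 fell in ME034V with no call in A.10. Their median change was 0.10 in ME034V and 1.07 in A.10. Of the 54 positive differences, 23 rose in ME034V alone, 14 fell in A.10 alone, 13 rose in ME034V and fell in A.10, 3 fell in both and 1 rose in both. Their median change was 0.54 in ME034V and -0.36 in A.10. These medians describe loci that the same test chose. In the fit of 16 libraries the 116 loci had the same sign, and the median difference was 0.73 for the positive and -0.68 for the negative ones, against 0.86 and -0.89 in the fit of 15. Of the 116, 96 had an unadjusted p under 0.05 with all 16 libraries. The fits share 15 libraries, so neither these signs nor these p-values are separate support for the 116 loci.

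Among these loci with a group mean of at least 10 CPM, the most negative differences were those of Sevir.3G394166 and Sevir.9G181200, chosen after their values were seen. Sevir.9G181200 had 8.02, 7.83, 16.3 and 7.87 CPM in ME034V 16 DAA and 8.42, 9.53, 5.29 and 6.36 CPM in ME034V 8 DAA. It had 27.4, 31.3, 48.5 and 48.4 CPM in A.10 16 DAA and 5.97, 7.60, 9.13 and 7.69 CPM in A.10 8 DAA. The A.10 stages did not overlap, and in ME034V 16 DAA only replicate 3 was above the 8 DAA libraries. The difference was -2.28 without ME034V 16 DAA replicate 3 (adjusted p = 0.00523 with edgeR) and -1.94 with it (adjusted p = 0.164). Sevir.3G394166 had 2.77, 3.10, 13.8 and 3.37 CPM in ME034V 16 DAA and 1.21 to 2.08 CPM in ME034V 8 DAA, against 10.1 to 19.9 CPM in A.10 16 DAA and 0.95 to 2.57 CPM in A.10 8 DAA. Replicate 3 was again the highest ME034V library and lay within the A.10 16 DAA range.

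ME034V 16 DAA replicate 3 stood apart from its group. Its log2 CPM correlated at 0.93 to 0.94 with those of the other ME034V 16 DAA libraries, and it was the outlying member of the group at 1594 loci, 876 high and 718 low, against 157 to 325 loci for the other libraries of the group. Its total of 7382660 counts lay within the range of its group. Starch synthesis genes were low in it. Sevir.5G244900, an ADP-glucose pyrophosphorylase, the enzyme that makes the glucose donor for starch, had 926, 849, 307 and 826 CPM in ME034V 16 DAA and 939, 1092, 728 and 728 CPM in ME034V 8 DAA. Summed over 7 starch synthesis markers (3 starch synthases, 2 branching enzymes and 2 ADP-glucose pyrophosphorylases), the level was 7023, 6451, 2880 and 6863 CPM in ME034V 16 DAA and 5446 to 7606 CPM in ME034V 8 DAA, against 7842 to 9175 CPM in A.10 16 DAA and 8540 to 11331 CPM in A.10 8 DAA. Replicate 3 was the lowest of the 16 libraries.

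Other genes were high in that library. SvTIP3;1, an aquaporin of seed storage vacuoles, had 276, 270, 1001 and 251 CPM in ME034V 16 DAA and 96.1 to 139 CPM in ME034V 8 DAA, and 250 to 443 CPM in A.10 16 DAA and 65.1 to 239 CPM in A.10 8 DAA. SvTIP3;1 rose in both ecotypes (1.94 in ME034V and 1.37 in A.10), with a difference of 0.57 (SE 0.60) that was -0.19 without replicate 3. The other TIP3 marker, SvTIP3;3, was not high in replicate 3. Its mean was 104 ± 45 CPM in ME034V 16 DAA (SD, n = 4). Its change in ME034V was -0.08, or 0.17 without replicate 3, and its difference was 0.15, or 0.40 without replicate 3. Sevir.9G549100, a beta-amylase, had 117, 180, 618 and 174 CPM in ME034V 16 DAA and 107 to 133 CPM in ME034V 8 DAA, and its difference of 0.65 was -0.15 without replicate 3. Of the 7 markers of open flowers and pollen, 4 were highest in replicate 3 among the ME034V 16 DAA libraries, and SvSUT3, Sevir.7G099400 and Sevir.1G112300 were not. SvSWEET5, a sugar pore listed with pollen genes, had 30.6, 69.8, 123 and 45.1 CPM in ME034V 16 DAA. The share of these levels in the called differences was not tested.

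**Figure D3:**
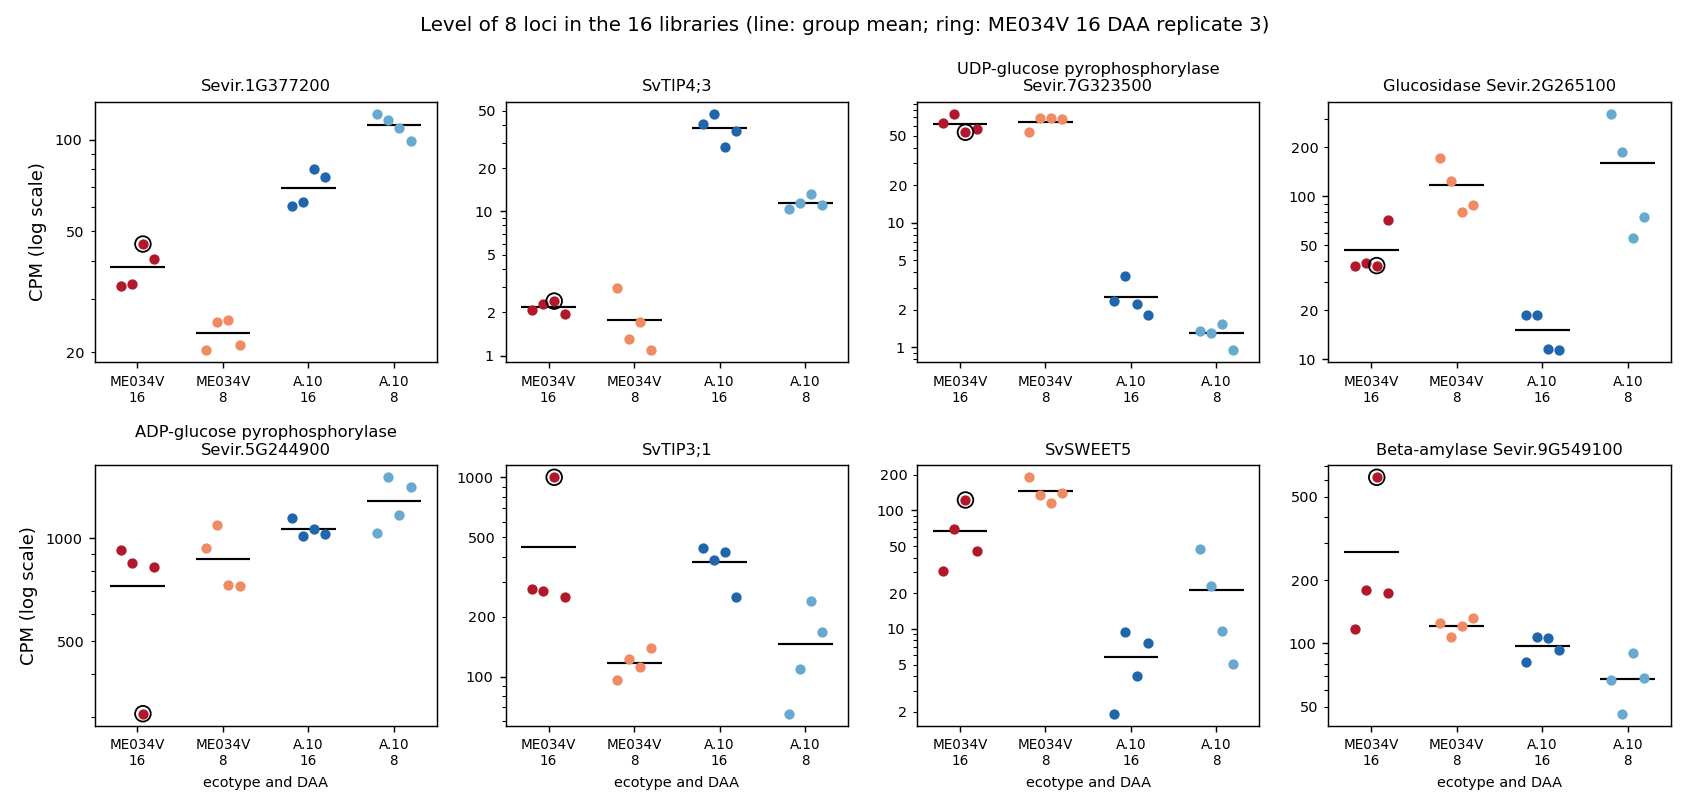
CPM (vertical axes, log scale) of 8 loci in the 16 libraries, by ecotype and DAA on the horizontal axes. Points are libraries, lines are group means, and rings mark ME034V 16 DAA replicate 3, which lies at 307 CPM for Sevir.5G244900 and at 1001 CPM for SvTIP3;1, apart from the other ME034V 16 DAA libraries.

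The 8 DAA groups were also spread. In a principal component analysis of the 500 most variable loci, the first component (84.3% of the variance) separated the ecotypes. The second (10.8%) separated the stages, with 12.4 to 25 in ME034V 16 DAA and -25.2 to -7.47 in ME034V 8 DAA, and 16.7 to 20.2 in A.10 16 DAA. In A.10 8 DAA, replicates 1 and 2 were at -40.0 and -31.4 and replicates 3 and 4 at -4.09 and -9.77. The spread within A.10 8 DAA was wider than that within A.10 16 DAA. The calls of the A.10 change depended on libraries of both stages, with 2021 loci without A.10 8 DAA replicate 1, 2345 without replicate 2 and 2331 and 2365 without A.10 16 DAA replicates 2 and 3, and 5414 without ME034V 16 DAA replicate 3. The fit estimated the spread between libraries once per locus over all groups, so an ME034V library also enters the test of the A.10 change. The ME034V change was called at 785 loci without ME034V 8 DAA replicate 1, 857 without replicate 2 and 1009 without replicate 4.

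Loci high at anthesis, the stage of open flowers, fell in both ecotypes by median. Which ecotype fell further depended on the measure and, for the medians of each ecotype, on the list and the libraries. A list of 807 loci was made from the early libraries, which the difference did not use, as those at least 4-fold higher at anthesis than at 50% seed head emergence in both ecotypes. Of the 705 tested at the late stages, 45 fell and 17 rose in ME034V, and 212 fell and 21 rose in A.10. The falls are 6.38% of the list in ME034V and 30.1% in A.10, against 2.07% and 7.08% of all loci. The median change was -0.97 in ME034V and -1.59 in A.10, and -1.56 in A.10 with the 10 loci that had a group at 0 set at the bound of 3 counts over that group. The median difference was 0.56, against 0.03 over all loci. It was above 0 at 509 of 705 loci, or 72.2%, against 54.3% of all loci. None of the 705 was called, and 8.51% had an unadjusted p under 0.05 with edgeR, close to the 8.32% of all loci. Without ME034V 16 DAA replicate 3 the median difference was 0.27 and 3 of 699 were called. With a list threshold of 1 log2 unit, which gave 1284 tested loci, the median change was -0.58 in ME034V and -0.60 in A.10, and without that library it was -0.66 in ME034V and -0.59 in A.10. The median difference per locus on that list was 0.29, and 0.12 without that library, so it was above 0 in each case.

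As a summed level, the 705 loci fell further in ME034V. The 705 loci summed to 15069, 18076, 24556 and 16647 CPM in ME034V 16 DAA and to 30145, 26554, 21039 and 26564 CPM in ME034V 8 DAA. In A.10 they summed to 13652, 14224, 11969 and 12469 CPM at 16 DAA and to 18374, 15420, 13477 and 13775 CPM at 8 DAA. Replicate 3 of ME034V 16 DAA lay within the ME034V 8 DAA range, and the A.10 stages overlapped. The mean sum was 18587 CPM in ME034V 16 DAA and 26075 CPM in ME034V 8 DAA, a change of -28.7%, and 13078 CPM in A.10 16 DAA and 15261 CPM in A.10 8 DAA, a change of -14.3%. Without replicate 3 of ME034V 16 DAA the ME034V change was -36.3%. A sum follows the loci of high level, and a median weights every locus alike. A list of loci high at 50% seed head emergence held 19 loci, of which 8 were tested, with a median difference of 0.33.

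**Figure D4:**
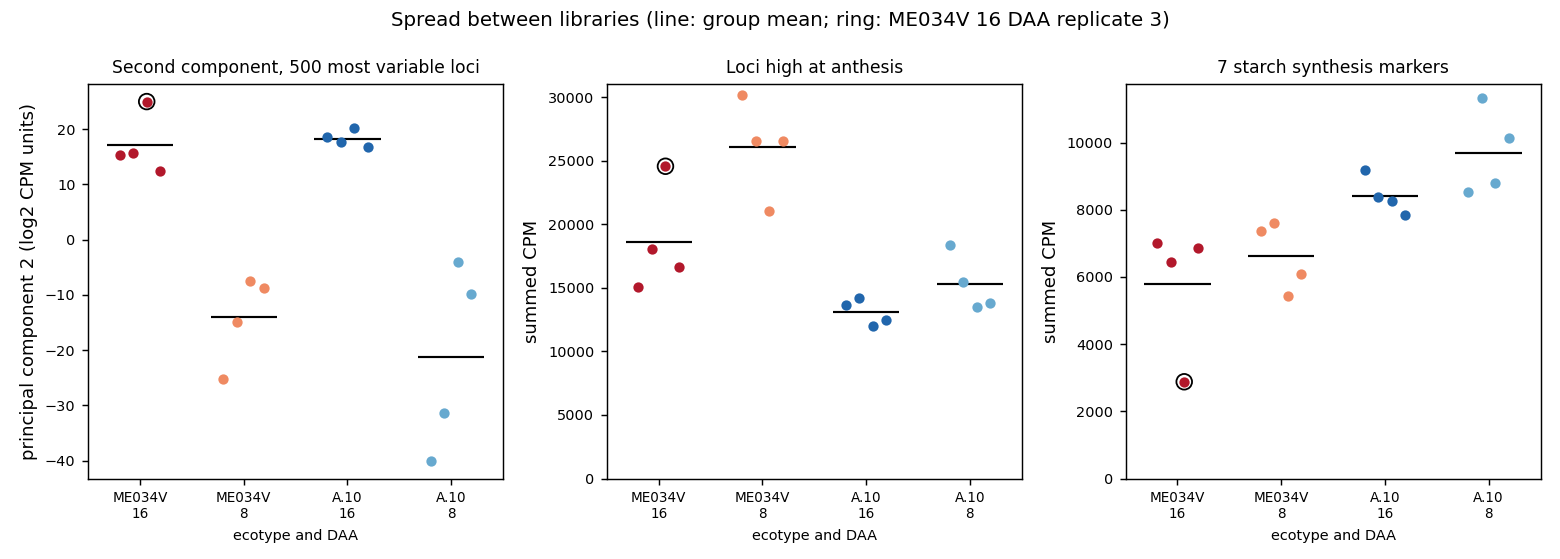
Values per library by ecotype and DAA (horizontal axes): the second principal component, the summed CPM of the tested loci that were high at anthesis, and the summed CPM of 7 starch synthesis markers. Lines are group means and rings mark ME034V 16 DAA replicate 3, at 25, 24556 CPM and 2880 CPM; replicates 1 and 2 of A.10 8 DAA lie lowest on the second component.

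Marker lists were summed at both stages. Their members were chosen with the stage means of these seed heads known, so the sums do not establish which tissues the heads held. The 7 markers of open flowers and pollen summed to 78.8, 157, 402 and 147 CPM in ME034V 16 DAA and to 313 to 430 CPM in ME034V 8 DAA. In A.10 they summed to 7.99 to 34.6 CPM at 16 DAA and to 177, 87.3, 34.0 and 25.7 CPM at 8 DAA, so that A.10 was lower than ME034V at each stage. None of the 7 was called in ME034V, where 2.07% of all loci fell. In A.10 4 fell, or 57.1% against 7.08% of all loci. Their median change was -0.98 in ME034V, or -1.26 without ME034V 16 DAA replicate 3, and -1.85 in A.10. None of the 7 was called in the difference. The sucrose transporter SvSUT3, listed here with pollen genes, had 6, 11, 6 and 9 counts in ME034V 16 DAA and 43, 14, 25 and 19 counts in ME034V 8 DAA, and 0 counts in all 4 A.10 16 DAA libraries and 17, 5, 0 and 1 counts in A.10 8 DAA. The count of 0 allows up to 0.0705 CPM over the A.10 16 DAA group, at least 8.88-fold lower than the 0.626 CPM of A.10 8 DAA, of which replicate 1 held most. For SvSUT3 a difference between the ecotypes is therefore not given. The 9 developing seed markers summed to 7446, 6819, 3925 and 7243 CPM in ME034V 16 DAA and 5654 to 7845 CPM in ME034V 8 DAA, and to 8158 to 9694 and 8671 to 11520 CPM in A.10. None of the 9 was called in the difference, whose median was 0.15, or 0.32 without ME034V 16 DAA replicate 3. The 4 markers of young growing tissue were not called in either ecotype.

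Of the 177 listed genes of sugar and water transport and metabolism, 175 were tested. The study compiled the list to follow seed filling in these seed heads. None was called in the difference, with or without ME034V 16 DAA replicate 3 (lowest adjusted p 0.212 and 0.0951 with edgeR), and 21 had an unadjusted p under 0.05, or 12% against 8.32% of all loci. Of the 21, 12 had a positive and 9 a negative difference. Without ME034V 16 DAA replicate 3, 41 of the 175 had an unadjusted p under 0.05 with edgeR, or 23.4% against 12.5% of all loci. DESeq2 called 1 member. The median difference was 0.11, against 0.03 over all loci, and 0.08 against 0.01 without ME034V 16 DAA replicate 3. Within ecotypes, 15 members rose and 9 fell in ME034V and 20 rose and 25 fell in A.10, which is 8.57% and 5.14% in ME034V and 11.4% and 14.3% in A.10. Over all loci these shares were 4.47% and 2.07% in ME034V and 8.19% and 7.08% in A.10, against which the counts of each family are to be read. Both ecotypes rose at 9 members and fell at 6, and no member was called in opposite directions.

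**Figure D5:**
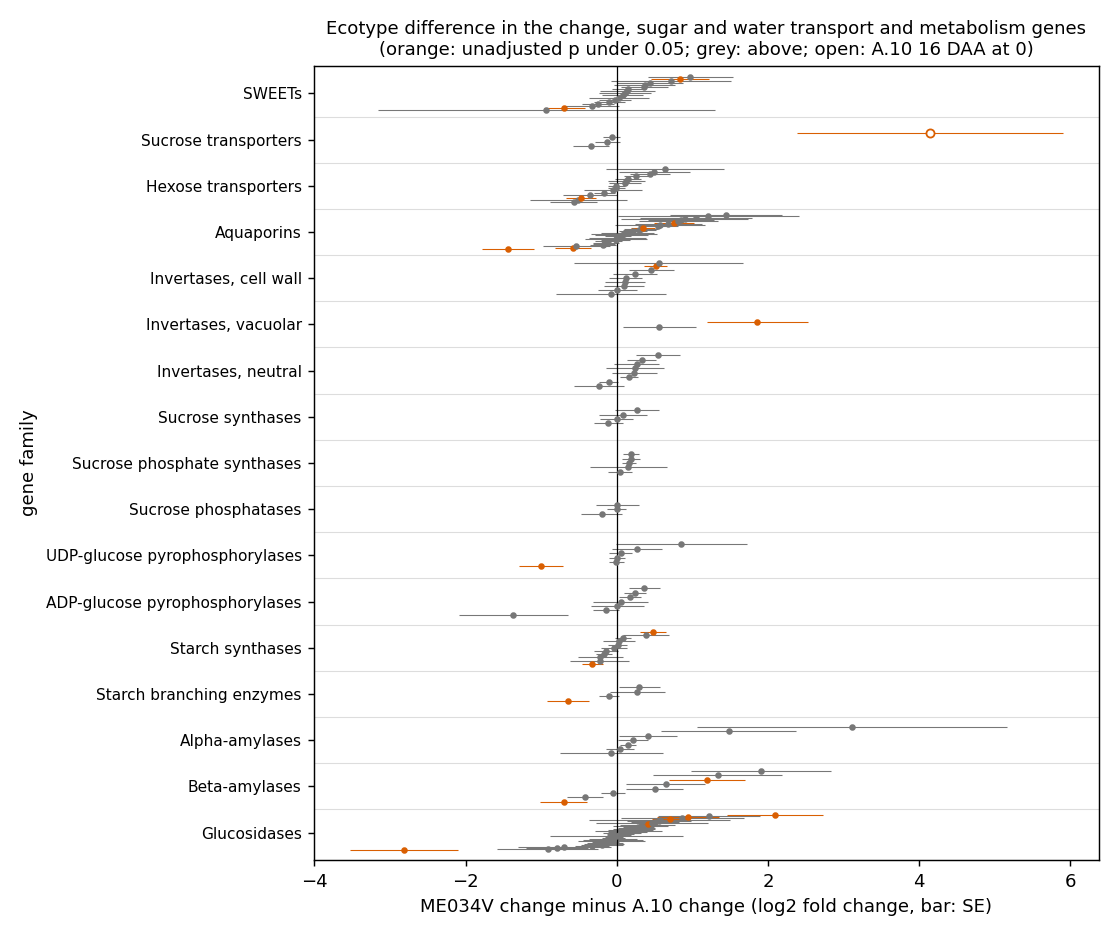
Difference in the change (ME034V change minus A.10 change, log2 fold change, horizontal axis) of the 175 tested family members with bars of 1 SE, grouped by family on the vertical axis. Orange marks the 21 members with an unadjusted p under 0.05, none of which passed adjustment over all loci; the open point is SvSUT3, whose fitted value rests on A.10 16 DAA at 0.

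No sugar pore or sugar transporter was called in the difference. Of 17 SWEETs, 1 rose in ME034V and 2 rose in A.10, and the median difference was 0.10, or -0.03 without ME034V 16 DAA replicate 3. SvSWEET4c, the most abundant, had 260 ± 16 CPM in ME034V 16 DAA and 238 ± 53 CPM in ME034V 8 DAA, and 223 ± 42 and 225 ± 12 CPM in A.10 (SD, n = 4 each). Its difference was 0.15 (95% interval -0.30 to 0.59). SvSWEET4a, another SWEET4, had a difference of 0.14 (95% interval -0.63 to 0.91), which was -0.30 without ME034V 16 DAA replicate 3. SvSWEET12 rose in both ecotypes, with 1, 9, 19 and 9 counts in ME034V 16 DAA and 0, 0, 1 and 1 counts in ME034V 8 DAA, and 44, 57, 78 and 124 counts in A.10 16 DAA and 1, 0, 1 and 5 counts in A.10 8 DAA. The adjusted p was 0.0140 in ME034V and 0.000103 in A.10 (edgeR), and the difference could not be resolved at this depth (SE 2.23).

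SvSWEET11b had 32.6, 27.9, 24.5 and 29.8 CPM in ME034V 16 DAA and 35.3, 31.7, 19.0 and 25.4 CPM in ME034V 8 DAA, and the stages overlapped. In A.10 it rose (0.74, adjusted p = 0.0167 with edgeR) to 27.5, 33.6, 19.8 and 36.3 CPM at 16 DAA, against 17.0, 16.7, 17.0 and 20.0 CPM at 8 DAA, and only replicate 3 at 16 DAA lay within the 8 DAA range. Its difference of -0.69 (SE 0.27) was not called (adjusted p = 0.494). SvSUT1, the sucrose/proton symporter of highest level here, had a difference of -0.12 (95% interval -0.47 to 0.23). Of 15 hexose transporters tested, 1 rose in ME034V and 4 rose in A.10. Sevir.3G145100 rose in both, with 27.1, 24.6, 23.7 and 26.7 CPM in ME034V 16 DAA against 12.5, 16.5, 18.2 and 13.7 CPM in ME034V 8 DAA, and 34.7, 41.1, 36.8 and 41.2 CPM in A.10 16 DAA against 14.4, 13.2, 19.4 and 19.3 CPM in A.10 8 DAA. The rise was 0.75 in ME034V and 1.22 in A.10, and the difference of -0.47 (SE 0.19) was not called. The hexose transporter of highest level, Sevir.5G089300, had a difference of 0.00 (-0.25 to 0.24).

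The lowest p among the family members was that of an aquaporin, SvTIP4;3 (Sevir.5G007100, chromosome 5 from 541669 to 545251). In ME034V it had 2.07, 2.28, 2.40 and 1.94 CPM at 16 DAA and 2.95, 1.31, 1.72 and 1.10 CPM at 8 DAA, that is 10 to 28 counts per library. In A.10 it had 40.2, 47.6, 27.8 and 35.8 CPM at 16 DAA and 10.4, 11.4, 13.2 and 11.1 CPM at 8 DAA. The ME034V stages overlapped, the A.10 stages were apart, and ME034V was below A.10 at both. The change was 0.28 in ME034V and 1.72 in A.10. Its difference of -1.44 (SE 0.34, 95% interval -2.17 to -0.71) was not called by edgeR (adjusted p = 0.212, or 0.0951 without ME034V 16 DAA replicate 3) and was called by DESeq2 (adjusted p = 0.0340). Like the others below with an unadjusted p under 0.05, it was chosen after its value was seen.

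Of the 28 aquaporins, 3 rose and 2 fell in ME034V and 4 rose and 5 fell in A.10. The 8 plasma membrane intrinsic proteins (PIPs) had a median difference of 0.28, or 0.16 without ME034V 16 DAA replicate 3, with 1 fall in ME034V and 3 in A.10. SvPIP2;7 fell in both, by 0.93 in ME034V and by 0.92 in A.10. SvPIP1;2, the most abundant, had a difference of 0.21 (95% interval -0.18 to 0.60), or 0.12 without that library. The 11 tonoplast intrinsic proteins had a median difference of 0.15, or 0.26 without it, and the 6 nodulin 26-like intrinsic proteins one of 0.31, or 0.43 without it. SvNIP2;1, whose rice relative carries silicon, rose in both ecotypes (1.22 in ME034V and 1.12 in A.10). SvNIP1;3 rose in ME034V (0.98), and its change was 0.23 in A.10 with no call (difference 0.76, adjusted p = 0.458 with edgeR).

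Among enzymes that cleave sucrose, 3 of 9 cell wall invertases rose in ME034V and 2 of them also in A.10, Sevir.1G184800 and Sevir.3G029100. These are 33.3% and 22.2% of the family, against 4.47% and 8.19% of all loci. The third, Sevir.3G029300, had 54.3, 47.5, 48.8 and 61.9 CPM in ME034V 16 DAA against 30.5, 35.5, 35.5 and 40.6 CPM in ME034V 8 DAA. It had 46.4, 48.3, 49.6 and 45.7 CPM in A.10 16 DAA and 42.8, 41.0, 54.0 and 43.9 CPM in A.10 8 DAA. The stages were apart in ME034V and overlapped in A.10, and the difference of 0.52 (SE 0.15) was not called (adjusted p = 0.323 with edgeR). The cell wall invertase of highest level, Sevir.7G099100, had a difference of 0.24 (95% interval -0.38 to 0.87), and 0.46 without ME034V 16 DAA replicate 3. Its change in A.10 was -0.44 with all libraries (adjusted p = 0.172) and -0.43 without that library (adjusted p = 0.0158, both with edgeR).

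Sevir.1G004700, listed as a vacuolar invertase, had overlapping stages in ME034V and fell in A.10 (-2.58). From protein modelling, the paper proposes that it probably encodes a fructosyltransferase of fructan synthesis instead. ME034V had 13.6, 42.9, 28.6 and 24.5 CPM at 16 DAA and 63.0, 38.2, 30.0 and 48.3 CPM at 8 DAA. A.10 had 3.17, 5.75, 2.47 and 2.72 CPM at 16 DAA and 44.0, 18.3, 12.7 and 7.58 CPM at 8 DAA, with the highest level in replicate 1, which was also the library lowest on the second component. The difference of 1.86 (SE 0.67) was not called (adjusted p = 0.464 with edgeR). None of the 8 neutral invertases was called in either ecotype, and the most abundant of them, Sevir.1G193400, had a difference of 0.17 (95% interval -0.09 to 0.42). Of 4 sucrose synthases, which split sucrose into UDP-glucose and fructose, the most abundant, Sevir.4G039300, had a difference of 0.00 (-0.46 to 0.47), or 0.18 without ME034V 16 DAA replicate 3.

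None of the genes of sucrose synthesis was called in the difference. Sevir.6G120400, the sucrose phosphate synthase of highest level, had a difference of 0.16 (95% interval -0.04 to 0.36), and Sevir.2G396500, a sucrose phosphatase, one of 0.00 (-0.26 to 0.26). Of 6 UDP-glucose pyrophosphorylases, the most abundant, Sevir.2G312500, had a difference of 0.05 (-0.28 to 0.38), or 0.18 without ME034V 16 DAA replicate 3. Sevir.7G323500 of that family differed far more in level than in change. It had 62.6, 74.9, 53.1 and 56.6 CPM in ME034V 16 DAA and 53.4, 68.7, 69.3 and 67.6 CPM in ME034V 8 DAA, against 2.34, 3.72, 2.21 and 1.81 CPM in A.10 16 DAA and 1.36, 1.31, 1.54 and 0.95 CPM in A.10 8 DAA. A.10 rose (0.93, adjusted p = 0.0220 with edgeR) at 9 to 15 counts per library at 8 DAA, and the difference of -0.998 (SE 0.29) was not called (adjusted p = 0.323). Among the family members 7 were at least 4-fold higher in mean CPM in ME034V than in A.10 at both stages and 1 was at least 4-fold lower. Some of the 7 were near the floor in A.10. SvNIP4;1 had 0.14 CPM in A.10 16 DAA and 0.28 CPM in A.10 8 DAA, and Sevir.3G289100 had 0.43 and 0.22 CPM. The share over all loci is not given, so the count is not read as a result about these families.

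Starch synthesis genes gave no call in the difference. Of 11 starch synthases, 1 fell in ME034V, and 1 rose and 1 fell in A.10. Sevir.4G021900, the most abundant, had a difference of -0.21 (95% interval -0.86 to 0.43), and -0.02 without ME034V 16 DAA replicate 3. Of 4 starch branching enzymes, Sevir.1G181900 was the most abundant, with 883, 772, 311 and 918 CPM in ME034V 16 DAA and 777 to 1134 CPM in ME034V 8 DAA, and 1024 to 1210 CPM in A.10 16 DAA and 1322 to 2226 CPM in A.10 8 DAA. Its stages were apart in A.10 and overlapped in ME034V, and the A.10 change of -0.65 was called only without ME034V 16 DAA replicate 3 (adjusted p = 0.0972 with all libraries and 0.00592 without it, edgeR). The difference was 0.27 with all 16 libraries and 0.52 with 15, and was called in neither. Of 7 ADP-glucose pyrophosphorylases, 1 fell in ME034V and 2 fell in A.10, and Sevir.6G130500, the most abundant, had a difference of 0.05 (-0.71 to 0.82), or 0.32 without replicate 3. At Sevir.4G021900, Sevir.1G181900 and Sevir.6G130500 replicate 3 was the lowest ME034V 16 DAA library.

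No amylase or glucosidase was called in the difference. The alpha-amylase Sevir.4G200900 rose in both ecotypes (0.73 in ME034V and 0.52 in A.10), and the most abundant alpha-amylase, Sevir.5G298000, had a difference of 0.04 (95% interval -0.35 to 0.43), or -0.04 without ME034V 16 DAA replicate 3. Of 8 beta-amylases tested, 1 rose and 1 fell in ME034V and 2 fell in A.10, and the median difference was 0.57, or -0.04 without ME034V 16 DAA replicate 3. Of 37 glucosidases, 4 rose and 3 fell in ME034V and 2 rose and 7 fell in A.10. Sevir.3G276700 rose steeply in both (2.62 in ME034V and 3.53 in A.10, with a difference of -0.91, or -1.52 without that library), and Sevir.7G173400 fell in both (-1.08 and -1.27).

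The glucosidase Sevir.2G265100 had 37.6, 39.2, 37.6 and 72.1 CPM in ME034V 16 DAA against 173, 125, 80.6 and 88.7 CPM in ME034V 8 DAA, and 18.7, 18.8, 11.6 and 11.4 CPM in A.10 16 DAA against 321, 186, 55.8 and 74.4 CPM in A.10 8 DAA. The stages were apart in both ecotypes, and within A.10 8 DAA replicates 1 and 2, the libraries lowest on the second component, had the highest levels. The change was -1.32 in ME034V (adjusted p = 0.0901) and -3.41 in A.10 (adjusted p = 0.000358), and the difference of 2.09 (SE 0.64) was not called (adjusted p = 0.345, edgeR). Sevir.7G173500 had 191, 174, 200 and 194 CPM in ME034V 16 DAA and 204, 184, 191 and 212 CPM in ME034V 8 DAA. In A.10 it fell (-0.48) to 174, 152, 159 and 146 CPM at 16 DAA, against 215, 248, 202 and 215 CPM at 8 DAA. Its difference was small and precise, 0.42 (SE 0.12, 95% interval 0.17 to 0.66), and was not called (adjusted p = 0.298 with edgeR). Sevir.3G289100 had the most negative fitted difference of the family members (-2.81, adjusted p = 0.255) but only 1 to 11 counts per A.10 library. It fell in ME034V, to 1.80, 2.61, 0.99 and 1.74 CPM at 16 DAA against 11, 3.62, 5.40 and 4.39 CPM at 8 DAA. The glucosidase of highest level, Sevir.2G281200, rose in ME034V (0.90) and had a change of 0.59 in A.10 with no call, with a difference of 0.32 (-0.45 to 1.08).

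The 2 qPCR reference genes of the study served as a check of scale. The elongation factor gene Sevir.3G271600 had a difference of -0.10 (95% interval -0.32 to 0.12). The translation factor gene Sevir.5G315700 had 60.4, 44.5, 34.8 and 59.2 CPM in ME034V 16 DAA and 33.9, 35.0, 43.9 and 37.3 CPM in ME034V 8 DAA, and 76.7 to 85.9 CPM in A.10 16 DAA and 79.9 to 89.8 CPM in A.10 8 DAA. Its difference of 0.45 (SE 0.19) had a 95% interval of 0.04 to 0.86, wholly above 0. It was not called after adjustment over all loci (adjusted p = 0.555 with edgeR). Without ME034V 16 DAA replicate 3, the lowest library of its group, the difference was 0.59 (adjusted p = 0.0801 with edgeR). With all libraries neither gene was called within an ecotype. Without that library Sevir.5G315700 rose in ME034V (0.55, adjusted p = 0.00564) and Sevir.3G271600 rose in A.10 (0.21, adjusted p = 0.0283, both with edgeR).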

How the data were processed

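RNA from whole seed heads was sequenced by the authors as poly(A)-enriched paired reads. After trimming by Trim Galore, the authors kept reads that Subjunc (Subread 1.6.2) placed uniquely. The deposited files hold raw counts per locus of the v2.1 annotation, made with no regard to strand by featureCounts, whose version in the headers is 1.5.0-p1. Near-identical or overlapping loci are uncertain under such counting. The log2 FPKM values of the study entered no fit or sum here. Their table gave the families and members, and the markers were chosen with its stage means known. No pair of replicates held identical counts. The labels give only replicate numbers, and the paper describes each replicate as a pool of 4 plants. The p-values therefore measure the spread between these pools.

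Counts of the 16 libraries were scaled together by TMM and fitted with edgeR 4.0.16 (R 4.3.3) with 1 mean per group. Loci needed CPM on library totals, before TMM, above 1 in at least 3 of 16 libraries. The Benjamini-Hochberg method adjusted the quasi-likelihood p-values across every tested locus, with a threshold of 0.05. SE is the log2 fold change divided by the root of the F statistic, and 95% intervals rest on it, so both are approximate. Intervals and floors cover no error beyond these libraries. The loci high at anthesis or emergence came from a fit of the 16 early libraries (log2 fold change of at least 2 in both ecotypes). The named genes were family members called in the difference, the member of highest mean CPM in each family with at least 3 tested members, at most 2 positive and 2 negative unnamed loci of at least 10 CPM called with and without ME034V 16 DAA replicate 3, markers and qPCR reference genes. Other names were added after values were seen. Members, lists and markers were chosen with earlier results of these data known. Alternatives were DESeq2 1.42.0, its size factors, library totals, other filters, a replicate block, all 32 libraries, thinned counts, a test for changes beyond 1 log2 unit (glmTreat), robust dispersion and each library left out.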

Additional observations from a re-analysis of the deposited data

Results flagged for a closer look

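The difference in the change of Sevir.1G377200, 1.41 on the log2 scale, differed between the ecotypes by edgeR's test of the difference itself, the 1 locus called by it with all 16 libraries. DESeq2 called 77 loci on the same libraries.

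Libraries were also compared within groups of 4 for a member far from the other 3, which chance gives in about 1 of 20 groups (5%). ME034V 16 DAA replicate 3 was outlying at 1594 loci, apart from its group in that number. A.10 16 DAA replicate 4 had 19063647 counts, far above the others of its group, and leaving it out gave 2 calls in the difference. Of 232 groups looked at for the named genes and lists, 19 had an outlying library, and 11 of these were ME034V 16 DAA replicate 3. In that library low values were found for the starch branching enzymes Sevir.1G181900 (311 CPM) and Sevir.4G298600 (463 CPM), the cell wall invertase Sevir.7G099100 (23.0 CPM), the ADP-glucose pyrophosphorylases Sevir.6G130500 (332 CPM) and Sevir.5G244900 (307 CPM), the starch synthase Sevir.4G021900 (1316 CPM), the 9 developing seed markers (3925 CPM in sum) and the 7 starch synthesis markers (2880 CPM in sum). High values were found there for SvTIP3;1 (1001 CPM), Sevir.3G394166 (13.8 CPM) and Sevir.9G181200 (16.3 CPM).

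In other libraries of ME034V, SvSUT3 was high in 16 DAA replicate 2 (1.79 CPM, 11 counts), Sevir.2G265100 was high in 16 DAA replicate 4 (72.1 CPM), Sevir.7G323500 was low in 8 DAA replicate 1 (53.4 CPM), and the markers of young growing tissue were high in 8 DAA replicate 1 (100.3 CPM in sum). In A.10, Sevir.4G298600 was low in 16 DAA replicate 2 (871 CPM), SvSWEET12 was high in 16 DAA replicate 3 (10.1 CPM), SvPIP1;2 was high in 8 DAA replicate 1 (411 CPM) and SvSWEET11b was high in 8 DAA replicate 4 (20.0 CPM).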

How the results depend on the processing

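The number of loci called in the difference, 1 with all 16 libraries, was also 1 with DESeq2 size factors, library totals, no filter and robust dispersion. It was 77 with DESeq2, 6 with CPM above 5 in at least 4 libraries, 35 with all 32 libraries, 2 with thinned counts and 0 against a log2 fold change of 1. Each library left out gave 0 to 116. With a replicate block it was 2, and 0 with the block within each ecotype. The labels do not say that a number marks anything shared, and the numbers were not taken as pairs, since not every correlation between the deviations of same-numbered libraries was above 0.1. These ran from -0.12 to 0.45 and were above 0.1 in 9 of 16 pairs, 6 of the 8 between ecotypes and 3 of the 8 between stages. Without ME034V 16 DAA replicate 3 the count of 116 was 332 with DESeq2, and 34 to 128 with 1 more library left out, an alternative added after the data were seen. The ME034V change (1543 calls) had 2668 with all 32 libraries, 41 against a log2 fold change of 1 and 785 to 1752 with each library left out. The A.10 change (3603 calls) had 176 against a log2 fold change of 1 and 2021 to 5414 with each library left out. The median difference of the loci high at anthesis was 0.29 at a list threshold of 1 log2 unit and 0.27 without ME034V 16 DAA replicate 3, and that of the loci high at emergence was 0.21 and 0.22. Sevir.1G377200 was not called without A.10 16 DAA replicate 2, with the block within ecotypes or against a log2 fold change of 1. Over 51 named genes and 27 settings, 1355 of 1371 values stayed on their side of the threshold. No called value changed sign, and 81 uncalled ones did. The cause of these shifts was not tested. Depth limits genes at a few counts per library, such as SvSWEET12 and SvSUT3.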
